A study of Caenorhabditis elegans with 9 samples.

Results

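Superoxide dismutases and catalases are encoded in Caenorhabditis elegans by 8 genes, sod-1 to sod-5 and ctl-1 to ctl-3. They were taken by gene name from a table of 45461 entries, and every one of the 8 had an entry. All 9 libraries were used. They came from whole adult nematodes 48 h after the L4 stage, the last larval stage, in 3 groups of 3 libraries. Each group differed in what its agar plates held. The control plates held water. The nicotinic acid plates held the pyridine carboxylic acid that worms can use to make NAD, at 1 mM per the source label but at 1 nM per the treatment protocol, a conflict that could not be settled. The MNA plates held 1-methylnicotinamide, the N-methylated form of nicotinamide, at 1 µM. The doses of the compounds therefore differ under either reading. All plates came from the same batch of agar, and the strain is not given in the labels used here.

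Superoxide is a by-product of respiration and of oxidases. Superoxide dismutases turn it into hydrogen peroxide and oxygen, and catalases turn hydrogen peroxide into water and oxygen. In C. elegans the cytosol, the mitochondria and the extracellular space have their own dismutases, and catalase works in the cytosol and in peroxisomes. Several of these genes are raised when the transcription factor DAF-16 (FOXO) is freed from insulin signalling, and sod-3 is widely used as its reporter.

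The libraries held 18501261 to 31247605 counts, of which 5009 to 8663 fell on the 8 genes. Levels are given in CPM, a count scaled to its library total and a trimmed-mean (TMM) factor, and errors of group means are standard deviations (SD) of 3 libraries. A detection floor of 3 counts corresponds to 0.0965 to 0.160 CPM and covers counting error only. The filter on low counts kept 13985 genes, and 6 of the 8 were among them. The others, sod-5 and ctl-1, were close to or under the floor. Nicotinic acid replicate 1 and MNA replicate 3 stood apart from the other libraries of their groups in a principal component analysis, and values without them are given where they matter. Whether the replicates were grown as separate cultures is not in the labels, so a p-value here reflects the spread between these samples, which may be technical.

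The dismutases and catalases covered a wide range of levels. On the scale of CPM per kilobase of annotated exon (WBcel235 gene models), the mean level over the 9 libraries was 168 for sod-1 and 131 for sod-2, the cytosolic and the main mitochondrial dismutase. It was 29.8 for ctl-2, the peroxisomal catalase. The order then ran through sod-4 at 5.64, ctl-3 at 3.76 and sod-3 at 2.51 to sod-5 at 0.151 and ctl-1 at 0.00244. The ranges over libraries of sod-1 (151 to 196), sod-2 (122 to 141) and ctl-2 (24.0 to 34.97) did not overlap. Those of sod-4 (4.48 to 6.74) and ctl-3 (3.13 to 5.10) did, as did those of ctl-3 and sod-3 (1.17 to 3.65). In CPM, sod-1 lay at the 86.4th percentile of the mean levels of all tested genes, ctl-2 at the 71.0th and sod-3 at the 26.6th.

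The order of the most abundant pair depends on the gene length. The deposited RPKM values, which divide by a length that the authors chose, put sod-1 at 61.5 and sod-2 at 68.6, the reverse order. Their length for sod-1 was 1961 bases, against 720 annotated exon bases in WBcel235. For ctl-3 the deposited RPKM averaged 292, the highest of the 8, because the length behind it was 21 bases against 1631 annotated. That length is the one of the small RNA 21ur-11898, which stands 15 entries earlier in the table. The same offset was found through most of the table, and the levels above use annotated exons for that reason. The entry of sod-2 lies in the offset part. With the lengths put back in place the order stayed reversed, with sod-1 at 61.5 and sod-2 at 68.0. The offset leaves comparisons of 1 gene between libraries unaffected where they rest on counts, which use no length. In alternatives that add a pseudocount to the deposited RPKM, a wrong length changes the weight of that pseudocount.

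**Figure D1:**
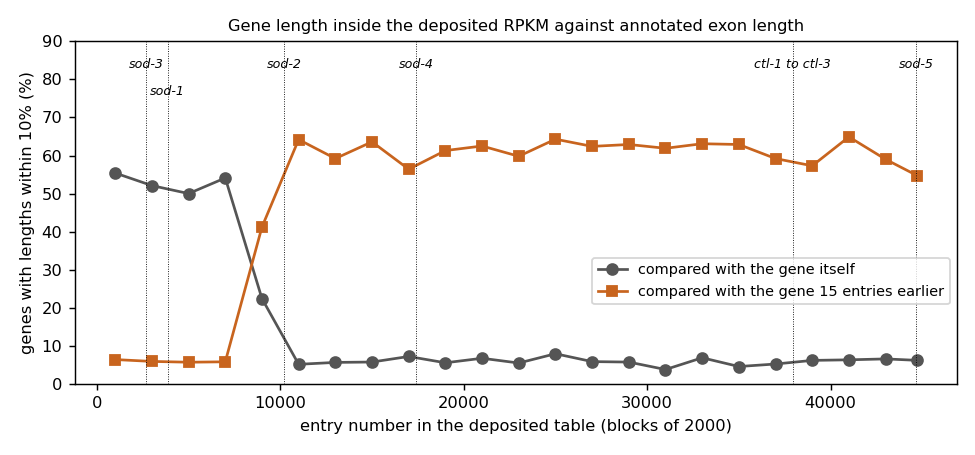
Share of genes (y axis, percent) whose length inside the deposited RPKM lay within 10% of the annotated WBcel235 exon length of the gene itself (circles) or of the gene 15 entries earlier (squares), by entry number in blocks of 2000 (x axis), with dotted lines at the dismutases and catalases. The share for the gene itself was 52.8% over entries 1 to 8000 and 6.03% beyond entry 10000, where the share for the gene 15 entries earlier was 61.2%.

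The nicotinic acid comparison asks which of these genes differed between worms on nicotinic acid and worms on water. Of the 6 tested genes, sod-3 was higher and none was lower. Over all 13985 tested genes 5.34% passed, 1.94% higher and 3.40% lower. The median log2 fold change of the 6 genes was -0.05 (3 above 0), against -0.00024 over all tested genes. At an unadjusted p below 0.05, 1 of the 6 was past the limit, as were 2686 of all 13985 tested genes. For both treatments, the call rule was an adjusted p below 0.05 in edgeR's quasi-likelihood test.

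The MNA comparison asks the same of worms on 1-methylnicotinamide. Here sod-1 was higher and none of the 6 was lower. Over all tested genes 7.41% passed, 3.63% higher and 3.78% lower. The median log2 fold change of the 6 genes was 0.05 (5 above 0), against -0.0027 over all tested genes. An unadjusted p below 0.05 was found for 2 of the 6 and for 2650 of all 13985 tested genes. With 1 gene called in each comparison, the counts rest on single genes. The nicotinic acid and MNA comparisons share their control libraries.

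**Figure D2:**
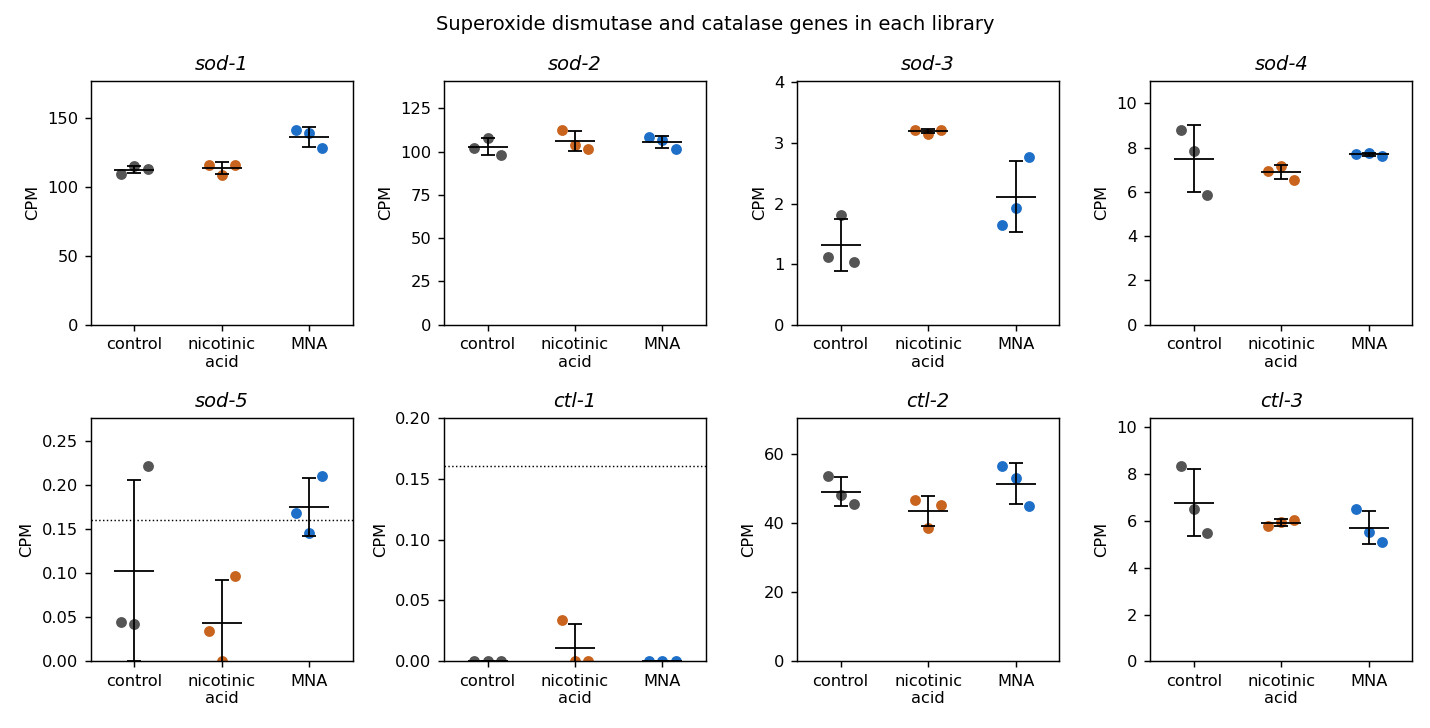
Level of each of the 8 genes (y axes, CPM, each starting at 0) in every library of the control, nicotinic acid and MNA groups (x axes), with horizontal bars at the group mean and error bars of 1 SD, n = 3, and a dotted line at the highest 3-count floor, 0.160 CPM, for sod-5 and ctl-1. The nicotinic acid libraries of sod-3 lie at 3.15 to 3.22 CPM, above every control library, and the MNA libraries of sod-1 lie at 128 to 141 CPM, above every other library.

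Among the cytosolic copper and zinc dismutases, sod-1 is the main form. Its level was 109, 115 and 113.1 CPM in the control libraries, 116, 109 and 116 CPM on nicotinic acid and 141, 139 and 128 CPM on MNA. Each MNA library exceeded each of the other 6, while the control and nicotinic acid libraries overlapped. The group means were 112 ± 2.72, 114 ± 4.15 and 136 ± 7.10 CPM (SD, n = 3 each). Against control, sod-1 rose 1.21-fold on MNA (95% interval 1.12 to 1.30, log2 fold change 0.27 with SE 0.05, edgeR adjusted p = 0.00489). The lowest MNA value was that of replicate 3, and without that library the log2 fold change was 0.32 (edgeR adjusted p = 0.00190). On nicotinic acid the fold was 1.01 (0.940 to 1.09, edgeR adjusted p = 0.911).

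In whole animals, a change in the number of cells that express a gene and a change in its RNA per cell cannot be told apart. For MNA the summed level of 10 intestinal markers, yolk genes included, was 56497 to 59826 CPM against 62514 to 73345 CPM in control. Of these markers 1 passed higher and 2 passed lower on MNA, and none was at 0 in either group. Over all tested genes 3.63% passed higher and 3.78% lower on MNA. Of 14 tested markers of hatched larvae and moulting, 5 passed higher and 2 lower, with a sum of 466 to 582 CPM against 375 to 607 CPM in control. Of 9 tested hypodermal markers 2 passed higher, with a sum of 1499 to 1650 CPM against 1599 to 2093 CPM. The summed sperm markers were at 21.3 to 22.8 CPM, with 13 of 34 at 0, against 19.6 to 20.7 CPM in control, with 15 at 0, and none of the 4 tested passed. No tested marker of oocytes and embryos (14), body wall muscle (9) or neurons (10) passed on MNA by edgeR. An unadjusted p below 0.05 was found for 0, 0 and 2 of them and for 2650 of all 13985 tested genes. The part of these markers in the sod-1 result was not tested. How reads shared between similar genes were assigned is not stated, so a marker at 0 in any group may still have RNA. The genes on either side of sod-1 did not pass. The log2 fold change on MNA was 0.06 for art-1 (SE 0.05, edgeR adjusted p = 0.636) and 0.12 for C15F1.8 (SE 0.19, edgeR adjusted p = 0.798). The annotated gene that overlaps sod-1, C15F1.13, had 0 counts in every library.

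The other cytosolic copper and zinc form, sod-5, is known from dauer larvae and long-lived insulin receptor mutants. It was near the floor in these adults, with 1, 1 and 6 counts in the control libraries, 1, 0 and 3 on nicotinic acid and 4, 4 and 6 on MNA. Scaled to depth, the MNA libraries lay at 0.145 to 0.210 CPM and the nicotinic acid libraries at 0 to 0.0965 CPM, while the control libraries overlapped both groups. With no filter on low counts, no comparison passed (edgeR adjusted p = 0.687 for nicotinic acid, 0.742 for MNA and 0.487 between them). No fold is given at these counts, and a difference was not detectable at this depth.

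The extracellular copper and zinc dismutase, sod-4, was at 8.81, 7.85 and 5.85 CPM in control, 6.96, 7.16 and 6.53 CPM on nicotinic acid and 7.71, 7.77 and 7.63 CPM on MNA. The control libraries spanned the values of both other groups. The annotation of sod-4 overlaps that of ctr-9, which was far more abundant, at 217 CPM in control. Against control, the fold was 0.919 on nicotinic acid (95% interval 0.745 to 1.13, edgeR adjusted p = 0.713) and 1.03 on MNA (0.838 to 1.27, edgeR adjusted p = 0.917).

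The manganese dismutases of the mitochondria are sod-2 and sod-3. The more abundant, sod-2, was at 102, 108 and 98.2 CPM in control, 112.7, 104.1 and 102 CPM on nicotinic acid and 108, 107 and 102 CPM on MNA. All 3 groups overlapped. The fold against control was 1.03 on nicotinic acid (95% interval 0.955 to 1.12, edgeR adjusted p = 0.711) and 1.03 on MNA (0.948 to 1.11, edgeR adjusted p = 0.789).

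The other manganese dismutase, sod-3, was rare. It had 25, 43 and 28 counts in the control libraries, 94, 59 and 100 on nicotinic acid and 39, 53 and 79 on MNA. These are 1.12, 1.82 and 1.03 CPM in control, 3.21, 3.15 and 3.22 CPM on nicotinic acid and 1.64, 1.92 and 2.77 CPM on MNA. The nicotinic acid libraries lay together above all others. They lay closer together than counting error alone would give at 59 to 100 counts, so their closeness is no measure of reproducibility. The MNA libraries ranged from within the control values to near the nicotinic acid values, and MNA replicate 3 was the highest of them.

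Against control (1.32 ± 0.429 CPM), sod-3 was 2.42-fold higher on nicotinic acid (3.19 ± 0.0345 CPM, 95% interval 1.68 to 3.48, log2 fold change 1.27 with SE 0.24, edgeR adjusted p = 0.0120). Without nicotinic acid replicate 1 the log2 fold change was 1.28 (edgeR adjusted p = 0.0299). The values nearest the limit came without control replicate 1 (log2 fold change 1.18, edgeR adjusted p = 0.0492) and without control replicate 3 (1.11, edgeR adjusted p = 0.0483). On MNA (2.11 ± 0.584 CPM) the fold was 1.61 (95% interval 1.11 to 2.35) and did not pass (edgeR adjusted p = 0.137). It passed without control replicate 2 (log2 fold change 0.98, edgeR adjusted p = 0.0401) and was 0.44 without MNA replicate 3 (edgeR adjusted p = 0.376).

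Markers of several cell types and stages passed in the nicotinic acid group, where 1.94% of all tested genes passed higher and 3.40% lower. The summed level of 34 sperm markers was 25.3 to 36.5 CPM on nicotinic acid, with 5 at 0 throughout, against 19.6 to 20.7 CPM in control, with 15 at 0. Of the 4 sperm markers with enough counts to test, 3 passed higher. Of 9 tested hypodermal markers, mostly cuticle collagens, 5 passed higher, although their sum of 1781 to 1965 CPM overlapped the control range of 1599 to 2093 CPM. Of 14 tested markers of hatched larvae and moulting, 4 passed higher and 1 lower, with a sum of 301 to 436 CPM against 375 to 607 CPM in control. Of 10 intestinal markers 1 passed higher and 1 lower (47876 to 66459 CPM against 62514 to 73345 CPM), and of 9 tested muscle markers 1 passed higher (2632 to 3322 CPM against 2525 to 2726 CPM). None of 14 tested oocyte and embryo markers or 10 neuronal markers passed by edgeR, with 1 and 6 at an unadjusted p below 0.05. That limit was passed by 2686 of all 13985 tested genes. The part of these markers in the sod-3 result was not tested. The gene lido-1, whose annotation overlaps sod-3, had a log2 fold change of -0.02 on nicotinic acid (SE 0.12, edgeR adjusted p = 0.956), and C08A9.3, which also overlaps it, had at most 1 count in a library. No strand setting is stated, so reads from the stretch that overlapping genes share cannot be told apart. The same limit applies to sod-2, whose annotation overlaps dpt-1 (175 CPM in control), and to ctl-2, which overlaps Y54G11A.7 (18.3 CPM in control). It also applies to sod-4 and ctr-9.

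The peroxisomal catalase, ctl-2, held most of the catalase counts, with 11133 over all libraries against 1408 for ctl-3 and 1 for ctl-1. Its level was 53.7, 48.1 and 45.5 CPM in control, 46.5, 38.6 and 45.2 CPM on nicotinic acid and 56.3, 52.9 and 44.8 CPM on MNA. All 3 groups overlapped. The fold against control was 0.888 on nicotinic acid (95% interval 0.766 to 1.03, edgeR adjusted p = 0.387) and 1.05 on MNA (0.903 to 1.21, edgeR adjusted p = 0.798).

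The catalase ctl-3 was at 8.31, 6.50 and 5.48 CPM in control, 5.77, 5.93 and 6.05 CPM on nicotinic acid and 6.49, 5.52 and 5.11 CPM on MNA. The control libraries again spanned most values of the other groups. Its fold against control was 0.878 on nicotinic acid (95% interval 0.696 to 1.11, edgeR adjusted p = 0.578) and 0.845 on MNA (0.670 to 1.07, edgeR adjusted p = 0.452). The cytosolic catalase, ctl-1, had 1 count in nicotinic acid replicate 1 and 0 in the other 8 libraries. In WBcel235 the catalase genes lie next to each other on chromosome II. They are close paralogs, and how reads shared between them were assigned is not stated, so the split between ctl-1, ctl-2 and ctl-3 is uncertain.

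**Figure D3:**
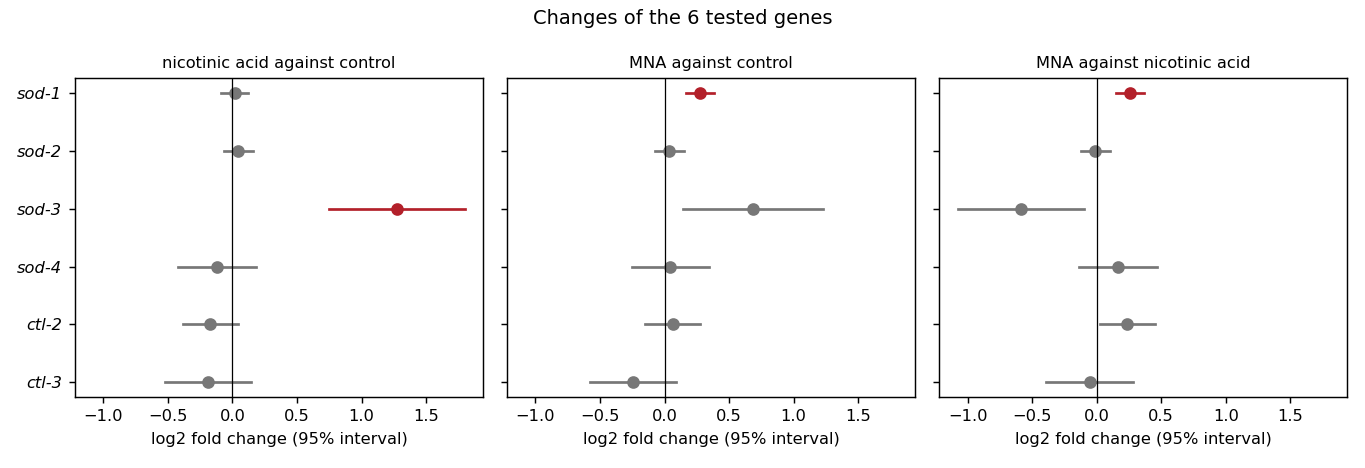
Log2 fold change (x axes) of the 6 tested genes (y axis) for nicotinic acid against control, MNA against control and MNA against nicotinic acid, with bars for the 95% interval of the fitted model and red for an adjusted p below 0.05. The red points are sod-3 at 1.27 in the first comparison and sod-1 at 0.27 and 0.26 in the others.

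Set directly against each other, the MNA and nicotinic acid groups differed in sod-1, which was 1.20-fold higher on MNA (95% interval 1.11 to 1.29, log2 fold change 0.26 with SE 0.05, edgeR adjusted p = 0.0184). The compounds differ in the carboxylate of nicotinic acid against the amide and the methylated ring nitrogen of MNA. They were given at different doses, so the values compare these groups of libraries. The sod-1 call was lost when nicotinic acid replicate 2 or 3 or MNA replicate 1 or 2 was left out (edgeR adjusted p = 0.0529 to 0.137). It was the single call among the 6 genes, and none was lower. Over all tested genes 1.42% passed, 1.10% higher on MNA and 0.315% lower. The median log2 fold change of the 6 was 0.08 (3 above 0), against -0.0027 over all tested genes. An unadjusted p below 0.05 was found for 3 of the 6 and for 1897 of all 13985 tested genes.

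The other dismutases and catalases did not pass between the compounds. For sod-3 the fold of MNA over nicotinic acid was 0.666 (95% interval 0.474 to 0.934, edgeR adjusted p = 0.262), with every MNA library below every nicotinic acid library. For ctl-2 it was 1.18 (1.02 to 1.36, edgeR adjusted p = 0.312), with overlapping libraries. For sod-4 it was 1.12 (0.911 to 1.38, edgeR adjusted p = 0.686), with every MNA library above every nicotinic acid library. The intervals of sod-2 (0.919 to 1.07) and ctl-3 (0.762 to 1.22) both included 1.

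Separation of the libraries by itself was common among all genes. For nicotinic acid against control the libraries of 1 of the 6 genes, sod-3, did not overlap, as for 22.6% of all tested genes (10.7% higher, 11.9% lower). For MNA against control it was again 1 gene, sod-1, as for 24.6% of all tested genes (11.5% higher, 13.1% lower). Between the compounds it was 3 genes, with sod-1 and sod-4 higher on MNA and sod-3 lower, as for 19.1% of all tested genes (9.78% higher, 9.32% lower).

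Ratios within a class do not depend on the scaling of a library. There were 1.06 to 1.15 sod-1 counts per sod-2 count in control and 1.03 to 1.14 on nicotinic acid, but 1.26 to 1.30 on MNA. The ratio was above both other groups in each MNA library (means 1.09 ± 0.0499, 1.07 ± 0.0596 and 1.29 ± 0.0250). The two-sided exact permutation p was 0.1 against either group, the smallest that 3 against 3 libraries allow.

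Within the manganese dismutases, sod-3 made up 0.946% to 1.51% of the length-scaled level in control, 2.53% to 2.80% on nicotinic acid and 1.36% to 2.42% on MNA. The nicotinic acid shares were above all others (exact permutation p = 0.1 against either group), and the MNA shares overlapped control (exact permutation p = 0.2). The rest of the level belonged to sod-2 in every library.

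In the catalases, there were 6.46 to 8.30 ctl-2 counts per ctl-3 count in control and 6.50 to 8.07 on nicotinic acid. On MNA the ratio was 8.68 to 9.59, above every other library (exact permutation p = 0.1 against either group), although neither gene passed alone. The split of reads between ctl-2 and ctl-3 is uncertain, and how often ratios of other genes separate in this way was not tested. The shares of sod-1 to sod-4 in the summed length-scaled dismutase level were 53.5%, 43.9%, 0.511% and 1.97% in control. They were 52.8%, 44.2%, 1.21% and 1.76% on nicotinic acid, and 57.4%, 39.99%, 0.735% and 1.79% on MNA. Since the shares sum to the whole, the lower sod-2 share on MNA is the counterpart of the higher sod-1 share, and the sod-2 level itself did not pass.

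**Figure D4:**
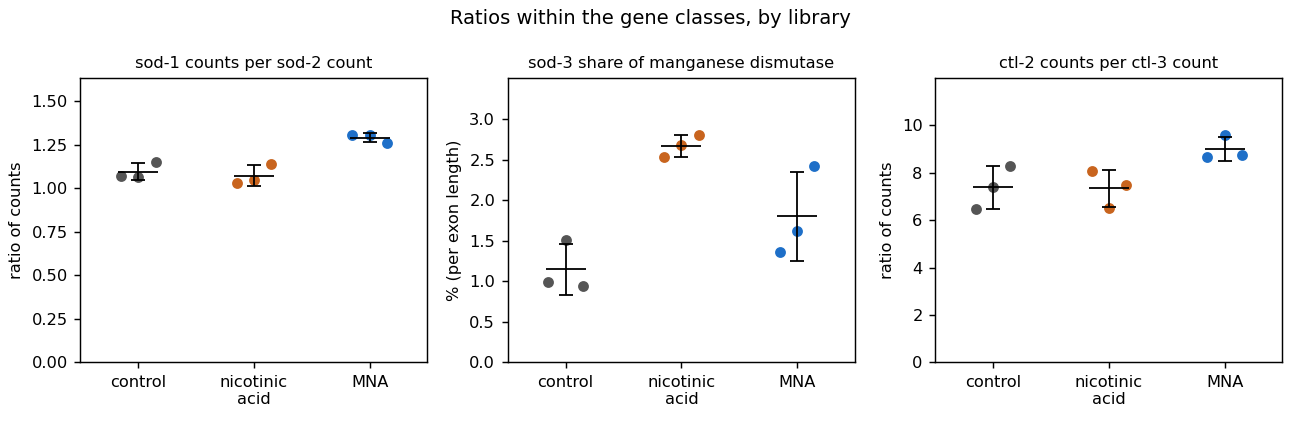
Ratios within the gene classes in each library of the 3 groups (x axes): sod-1 counts per sod-2 count, the sod-3 share of the manganese dismutase level in percent, and ctl-2 counts per ctl-3 count (y axes, each starting at 0), with horizontal bars at the mean and error bars of 1 SD, n = 3. The MNA libraries are the highest for sod-1 over sod-2 (1.26 to 1.30) and ctl-2 over ctl-3 (8.68 to 9.59), and the nicotinic acid libraries are the highest for the sod-3 share (2.53% to 2.80%). The split of reads between ctl-2 and ctl-3 is uncertain.

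The genes did not vary as a block. Over the 9 libraries the Pearson correlation of log2 CPM was 0.58 between sod-1 and ctl-2, 0.59 between sod-4 and ctl-3, 0.00 between sod-1 and sod-3 and -0.56 between sod-3 and ctl-2. These are descriptions over libraries that share groups and scaling. Within groups, and among the 6 tested genes, the coefficient of variation ran from 3.94% for sod-1 and 4.62% for sod-2 to 24.6% for sod-3. Counting error alone would give 1.79%, 1.92% and 13.2%. For ctl-2, at 10.1% against 2.84%, most of the spread was not counting error.

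The 5 genes whose pattern over the 9 libraries was most like that of sod-3, by Pearson correlation of log2 CPM, were col-176 (0.958), F57B1.9 (0.956), clec-56 (0.952), F11E6.3 (0.950) and pho-7 (0.943). They were picked for this likeness, so their values are a description. From control to nicotinic acid, the cuticle collagen gene col-176 went from 3.999 ± 1.06 to 10.2 ± 1.13 CPM, and it was at 5.40 ± 1.23 CPM on MNA. The C-type lectin gene clec-56 was at 24.1 ± 0.886, 26.95 ± 0.784 and 25.1 ± 0.671 CPM in control, nicotinic acid and MNA.

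Peroxiredoxins and glutathione peroxidases also remove hydrogen peroxide. Of the 11 tested genes of this list, 1 rose and none fell on nicotinic acid, and 3 rose and none fell on MNA. Over all tested genes 5.34% and 7.41% passed in these comparisons, so 1 of 11 is near the background. The median log2 fold changes were 0.03 and 0.04, against -0.00024 and -0.0027 over all tested genes. The glutathione peroxidase gene gpx-3 was at 1.26 ± 0.0713 CPM in control, 2.60 ± 0.478 CPM on nicotinic acid and 2.36 ± 0.822 CPM on MNA. It rose by a log2 fold change of 1.04 on nicotinic acid (SE 0.26, edgeR adjusted p = 0.0342) and 0.92 on MNA (SE 0.26, edgeR adjusted p = 0.0475). Both calls are marginal, lost under 8 and 13 of 19 alternatives, among them the omission of any 1 control library or of nicotinic acid replicate 2 or 3, and for MNA also of MNA replicate 2 or 3.

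A second glutathione peroxidase gene, gpx-1, was at 13.2 ± 0.481 CPM in control, 13.1 ± 1.18 CPM on nicotinic acid and 21.2 ± 2.60 CPM on MNA. It rose on MNA by a log2 fold change of 0.69 against control (SE 0.10, edgeR adjusted p = 0.00177) and 0.70 against nicotinic acid (SE 0.10, edgeR adjusted p = 0.00321). Its direction across the groups was that of sod-1, and both of its calls held under all 19 alternatives. The peroxiredoxin gene prdx-2, the most abundant of the list in CPM, rose from 631 ± 31.3 to 740 ± 54.9 CPM on MNA (log2 fold change 0.23 with SE 0.06, edgeR adjusted p = 0.0484), a call lost under 8 of 19 alternatives. Among these were the omission of control replicate 1 or 3, nicotinic acid replicate 2 or 3 and MNA replicate 1 or 2. Between the compounds, where 1.42% of all tested genes passed, gpx-1 was the single gene of the 11 to pass.

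The list of genes tied to NADPH oxidases, which make superoxide, and to copper and manganese transport had 6 tested genes of 8. Of the oxidases only bli-3 was tested, since duox-2 did not pass the filter on low counts. The others tested were memo-1, cua-1, cuc-1, smf-1 and smf-3. None of the 6 passed on nicotinic acid by edgeR. None was at an unadjusted p below 0.05 either, against 2686 of all 13985 tested genes. On MNA 1 of the 6 rose, where 7.41% of all tested genes passed. This was smf-3, a divalent metal transporter gene of the family that takes up manganese and iron. It went from 1.65 ± 0.172 CPM in control to 3.31 ± 0.575 CPM on MNA (log2 fold change 1.00 with SE 0.19, edgeR adjusted p = 0.00737) and was at 1.93 ± 0.236 CPM on nicotinic acid. The copper chaperone gene cuc-1 and the copper pump gene cua-1, which serve copper proteins, had log2 fold changes of -0.20 (edgeR adjusted p = 0.293) and 0.01 (edgeR adjusted p = 0.964) on MNA.

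The insulin pathway that leads to DAF-16, together with the regulators SKN-1 and HSF-1, had 17 tested genes. None passed on nicotinic acid by edgeR, with 1 at an unadjusted p below 0.05, against 2686 of all 13985 tested genes. On MNA 1 of the 17 rose, no larger a share than the 7.41% of all tested genes that passed. The same gene passed against nicotinic acid, where 1.42% of all tested genes did. This was wdr-23, which encodes a repressor of SKN-1, at 90.6 ± 1.63 CPM in control, 90.3 ± 2.48 CPM on nicotinic acid and 105 ± 4.17 CPM on MNA. The log2 fold change was 0.22 against control (SE 0.04, edgeR adjusted p = 0.00993) and 0.22 against nicotinic acid (SE 0.04, edgeR adjusted p = 0.0243). The call against control was lost without MNA replicate 2 (edgeR adjusted p = 0.0635). The call against nicotinic acid was lost without nicotinic acid replicate 1 or 2 or MNA replicate 1 or 2 (edgeR adjusted p = 0.0716 to 0.197).

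The RNA of daf-16 itself was at 188 ± 12.3 CPM in control, 184 ± 3.68 CPM on nicotinic acid and 179 ± 4.83 CPM on MNA. Its log2 fold change was -0.03 on nicotinic acid (95% interval -0.14 to 0.08, edgeR adjusted p = 0.812) and -0.07 on MNA (-0.18 to 0.04, edgeR adjusted p = 0.520). That of skn-1 was -0.04 (edgeR adjusted p = 0.742) and 0.02 (edgeR adjusted p = 0.897). These regulators act largely through their location and stability, which RNA levels do not show. For nicotinic acid, and for skn-1, they were named after their values were seen.

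Of 16 genes known to rise with active DAF-16, other than the dismutases and catalases, 9 had enough counts to test. Among the rest, gpd-2, hsp-16.1 and scl-1 were at 0 CPM in every group. How reads shared between similar genes were assigned is not stated, so 0 counts need not mean absent RNA. On nicotinic acid 1 of the 9 fell and none rose, where 3.40% of all tested genes passed lower and 1.94% higher. The median log2 fold change was -0.38 with 2 above 0, against -0.00024 over all tested genes. The gene that fell was sip-1, a small heat shock protein gene, from 1507 ± 30.96 to 1289 ± 56.6 CPM (log2 fold change -0.23 with SE 0.06, edgeR adjusted p = 0.0489), a call lost under 11 of 19 alternatives, among them every omission of 1 library except MNA replicate 3. The genes of next smallest p, dod-3 (log2 fold change -0.83, edgeR adjusted p = 0.160) and lea-1 (-0.38, edgeR adjusted p = 0.163), did not pass. The metallothionein gene mtl-1 was at 3.07 ± 3.22 CPM in control and 1.30 ± 0.284 CPM on nicotinic acid, and did not pass (edgeR adjusted p = 0.417).

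On MNA 1 of the 9 rose and 1 fell, with a median of -0.19, against -0.0027 over all tested genes, of which 7.41% passed. The gene lea-1, of the desiccation-related LEA family, fell from 491 ± 74.1 to 287 ± 8.89 CPM (log2 fold change -0.78 with SE 0.14, edgeR adjusted p = 0.0110), lost without control replicate 3 (edgeR adjusted p = 0.0512) or MNA replicate 2 (edgeR adjusted p = 0.0622). The gene dod-6 rose from 28.6 ± 2.12 to 35.6 ± 3.89 CPM (log2 fold change 0.32 with SE 0.08, edgeR adjusted p = 0.0372), lost under 10 of 19 alternatives, among them the omission of control replicate 1 or 2, nicotinic acid replicate 3 or any MNA replicate. Between the compounds none of the 9 passed by edgeR, with 3 at an unadjusted p below 0.05, against 1897 of all 13985 tested genes.

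Peroxins import catalase and other enzymes into peroxisomes. None of the 11 tested peroxin genes passed in any comparison by edgeR. At an unadjusted p below 0.05 there was 1 on nicotinic acid, 0 on MNA and 2 between the compounds. Over all 13985 tested genes these counts were 2686, 2650 and 1897. The median log2 fold change was -0.09 on nicotinic acid and 0.02 on MNA. The receptor gene prx-5, which carries matrix enzymes to the peroxisome, had log2 fold changes of 0.01 (edgeR adjusted p = 0.971) and 0.07 (edgeR adjusted p = 0.787).

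**Figure D5:**
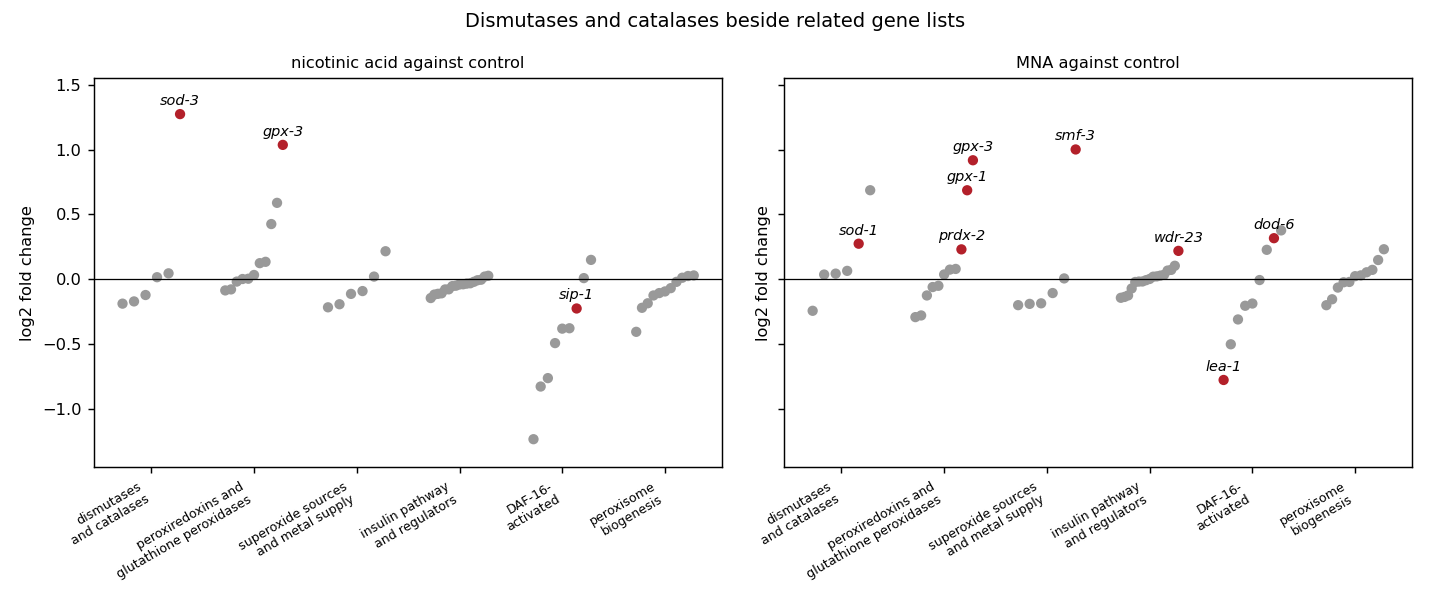
Log2 fold change (y axes) of each tested gene of the dismutases and catalases and of 5 related lists (x axes), for nicotinic acid against control and MNA against control, with red and a name for an adjusted p below 0.05. In the nicotinic acid panel the named genes are sod-3 (1.27), gpx-3 (1.04) and sip-1 (-0.23), and in the MNA panel sod-1 (0.27) stands with gpx-1 (0.69), gpx-3 (0.92), prdx-2 (0.23), smf-3 (1.00), wdr-23 (0.22), dod-6 (0.32) and lea-1 (-0.78).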

How the data were processed

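Per the labels, total RNA of whole animals was extracted with QIAzol and 2 µg were made into libraries with a TruSeq kit. CASAVA, TopHat 1.4.1 and HTSeq are named in the submitters' processing notes, while build, annotation, counting settings and strand handling were not given in the sources used. By their values, the deposited counts are unscaled and whole. The authors' RPKM equals each count divided by its library total and by a gene length. From between entries 8001 and 10000 onward that length is the one of the entry 15 places earlier, judged by WBcel235 exon lengths within 10%. RPKM as deposited had been planned for levels between genes, and CPM per kilobase of annotated WBcel235 exon was used in its place.

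Genes were filtered with filterByExpr by group (minimum count 10), which kept 13985 genes with 99.9% of the counts. They were scaled by TMM (factors 0.963 to 1.03) and fitted with edgeR 4.0.16 (R 4.3.3), quasi-likelihood and robust, on all 9 libraries with group as the only term. Tests were two-sided, adjusted by Benjamini-Hochberg over all tested genes with a threshold of 0.05. Intervals (95%) come from the fitted model. Single ratios used exact permutation tests.

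Named genes were the 8 genes, up to 4 genes of smallest p per list and comparison, and the 5 genes most like sod-3 with a mean of at least 1 CPM, on log2(CPM + 0.1). Of the list genes in the text, cua-1, mtl-1 and skn-1 lay outside this rule, as did daf-16 and prx-5 on nicotinic acid. The genes and lists were chosen with earlier results of these data known. List names gei-7 and prx-7 had no match. Alternatives were other size factors, library totals only, other filters, a replicate block, DESeq2 1.42.0, limma-voom and limma-trend (limma 3.58.1) on log2(RPKM + 0.1) and log2(RPKM + 1), 6-library fits and the omission of each library. Replicates of a group differed beyond counting noise (chi-square per degree of freedom 3.00 to 15.2), so no pair was taken for a repeat of 1 library, which does not show that they are separate cultures.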

Additional observations from a re-analysis of the deposited data

Results flagged for a closer look

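The nicotinic acid and MNA effects on sod-1, each against the same water controls, differed by the direct test of MNA against nicotinic acid (log2 difference 0.26, edgeR adjusted p = 0.0184). The same test separated the compounds for gpx-1 (log2 difference 0.70, edgeR adjusted p = 0.00321) and wdr-23 (log2 difference 0.22, edgeR adjusted p = 0.0243). The means in control, nicotinic acid and MNA were 112, 114 and 136 CPM for sod-1, 13.2, 13.1 and 21.2 CPM for gpx-1 and 90.6, 90.3 and 105 CPM for wdr-23. The doses differ, so compound and dose cannot be told apart.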

How the results depend on the processing

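The sod-3 rise on nicotinic acid (log2 0.94 to 1.57) and the sod-1 rise on MNA (0.25 to 0.32) passed under all 19 alternatives. The sod-1 difference between the compounds (0.23 to 0.30) failed in 6, limma-trend on log2(RPKM + 0.1) and log2(RPKM + 1) (0 of 6 genes past the threshold in each) and 4 single omissions, so the count ran from 0 to 1 with single libraries left out. For MNA against control it ran from 1 to 2. With single libraries left out, values that did not pass changed sign: on nicotinic acid sod-1 (-0.00018 to 0.047), sod-4 (-0.28 to 0.011) and daf-16 (-0.065 to 0.026), on MNA sod-4 (-0.11 to 0.17) and ctl-2 (-0.0068 to 0.16), between the compounds sod-2 (-0.043 to 0.034) and ctl-3 (-0.15 to 0.019). Over all genes, 747 passed on nicotinic acid, but 350 and 322 with RPKM (pseudocounts 0.1 and 1), 388 with only the 6 libraries compared, and 254 to 758 with single omissions. For MNA 1036 passed, but 607 and 648 with RPKM and 369 to 1195 with omissions. Between the compounds 198 passed, but 431 with no filter, 389 with DESeq2, 101 and 108 with RPKM, and 76 to 418 with omissions. The RPKM alternatives use the values as deposited, offset lengths included. The lowest counts came without control replicate 1 on nicotinic acid and without MNA replicate 2 in the others, and the highest between the compounds without MNA replicate 3. The cause was not tested. Replicate numbers did not clearly pair the samples (correlation over 0.1 in 2 of 9 same-number pairs, 5 of 9 libraries closest to their own number). Same-number pairs ran from -0.20 to 0.16, and every pair of replicate 3 was positive (0.081 to 0.16). A replicate block gave 738 calls on nicotinic acid, 1056 on MNA and 285 between the compounds. With a replicate block, sod-3 on nicotinic acid was 1.29 (edgeR adjusted p = 0.0139) and sod-1 0.27 on MNA (0.00671) and 0.26 between the compounds (0.0216); lea-1 on MNA (0.0626) and sip-1 on nicotinic acid (0.0589) did not pass. Alternatives for genes and lists other than the 8 were added after seeing the data. Over these, 1 to 3 peroxidases passed on MNA, 0 to 1 on nicotinic acid and 1 to 3 between the compounds. For DAF-16-activated genes it was 0 to 2, 0 to 2 and 0 to 3, for the insulin list 0 to 1, 0 and 0 to 1, for oxidases and metal transport 1, 0 and 0 to 1, and for peroxins 0 throughout. Levels moved with gene length (sod-1 168 to 61.5, sod-2 131 to 68.0, ctl-2 29.8 to 15.2 with the lengths behind RPKM put back in place). The counts of sod-5 and ctl-1 lie near or under the floor.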
